A study of Mus musculus with 8 samples.

Results

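The genes described here are 46 genes of the interferon response and of antigen presentation by major histocompatibility complex (MHC) class I molecules, out of 18194 genes that the array annotation pairs with a probe set of their own. They were chosen by name: every probe set that the annotation pairs with exactly 1 of the 46 symbols was taken, which gave 74 probe sets for 44 genes. Isg15 lay only on a probe set shared between several genes and Ifi44 had no named probe set, so no value is given for either. Each gene was read by its brightest probe set, and 42 genes passed a filter that removed the 40% of probe sets with the lowest mean (a signal of about 90.2). Mx1 and Mx2 lay below it and were not tested.

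RNA from quadriceps muscle of adult male C57Bl/10 mice was hybridised to 8 Affymetrix mouse arrays, 1 per sample. The 4 hypoxia samples came from mice held in a closed chamber for 2 weeks, in which oxygen was brought down from 21% to 8% during the first week and was held at 8% for 7 days more. The 4 control samples came from mice under room conditions for the same 2 weeks, so chamber and low oxygen cannot be told apart. The labels do not say that the samples of a group were separate animals. The p-values set each difference against the spread of samples within groups, moderated over all genes tested. That spread may not be one between animals.

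Interferons are secreted proteins that cells release on sensing viral nucleic acid or, in the case of interferon gamma, on activation of lymphocytes. Type I interferons bind the receptor pair encoded by Ifnar1 and Ifnar2 and act through a complex that holds STAT2 and IRF9 and binds interferon-stimulated response elements, whereas interferon gamma binds the pair encoded by Ifngr1 and Ifngr2 and acts at gamma-activated sites. The induced genes include antiviral effectors, guanosine triphosphatases (GTPases) that attack intracellular pathogens, and the machinery that loads peptides onto MHC class I molecules. Resting skeletal muscle fibres are known to carry little MHC class I, and the vessels, resident leukocytes and connective tissue of a muscle also express these genes.

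After hypoxia, 15 of the 42 tested genes fell and 2 rose at an adjusted p of 0.05 (limma, Benjamini-Hochberg over 13257 genes). The falls included Ifi27l2a (8.12-fold), Ifit3 (5.31-fold), Tap2 (2.73-fold), Oas1a (2.66-fold), Ifi35 (2.56-fold) and B2m (1.61-fold), and the rises were Irgm1 (1.72-fold) and Tap1 (1.64-fold). Under alternative settings the rise of Irgm1 passed in all 21. The rise of Tap1 lost its call in 10 of 19 and is uncertain. The falls of Oas1a and B2m also lost their calls under some settings. By role, falls were called in 0 of 4 receptor genes, 1 of 8 transducers and regulatory factors, 2 of 7 sensors and ubiquitin or ADP-ribose enzymes, 6 of 13 antiviral effectors, 4 of 6 GTPases and 2 of 4 presentation genes. Of all genes tested 18.8% fell, and differences between the roles were not tested. All differences are hypoxia minus control on log2(signal + 16), a scale that understates changes of dim genes.

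The share of these genes that fell was 35.7%, against 18.8% of all genes tested. The share that rose was 4.76%, against 14.8% of all genes, where both directions together made up 33.6%. The median difference was -0.46, against -0.04 for all genes tested, and 35 of the 42 differences were below 0 (83.3%, against 52.9% of all genes). The hypoxia and control values did not overlap for 16 of the 42 genes (38.1%), which is near the 33.4% of all genes. These shares describe the list and were not tested. Ifit3, Isg20, Oas1a and Tap2 passed the filter only through their control values, and 3 of these 4 are among the genes that fell. Without the filter 15 of 44 genes fell and 1 rose, where 13.2% of all genes fell.

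**Figure D1:**
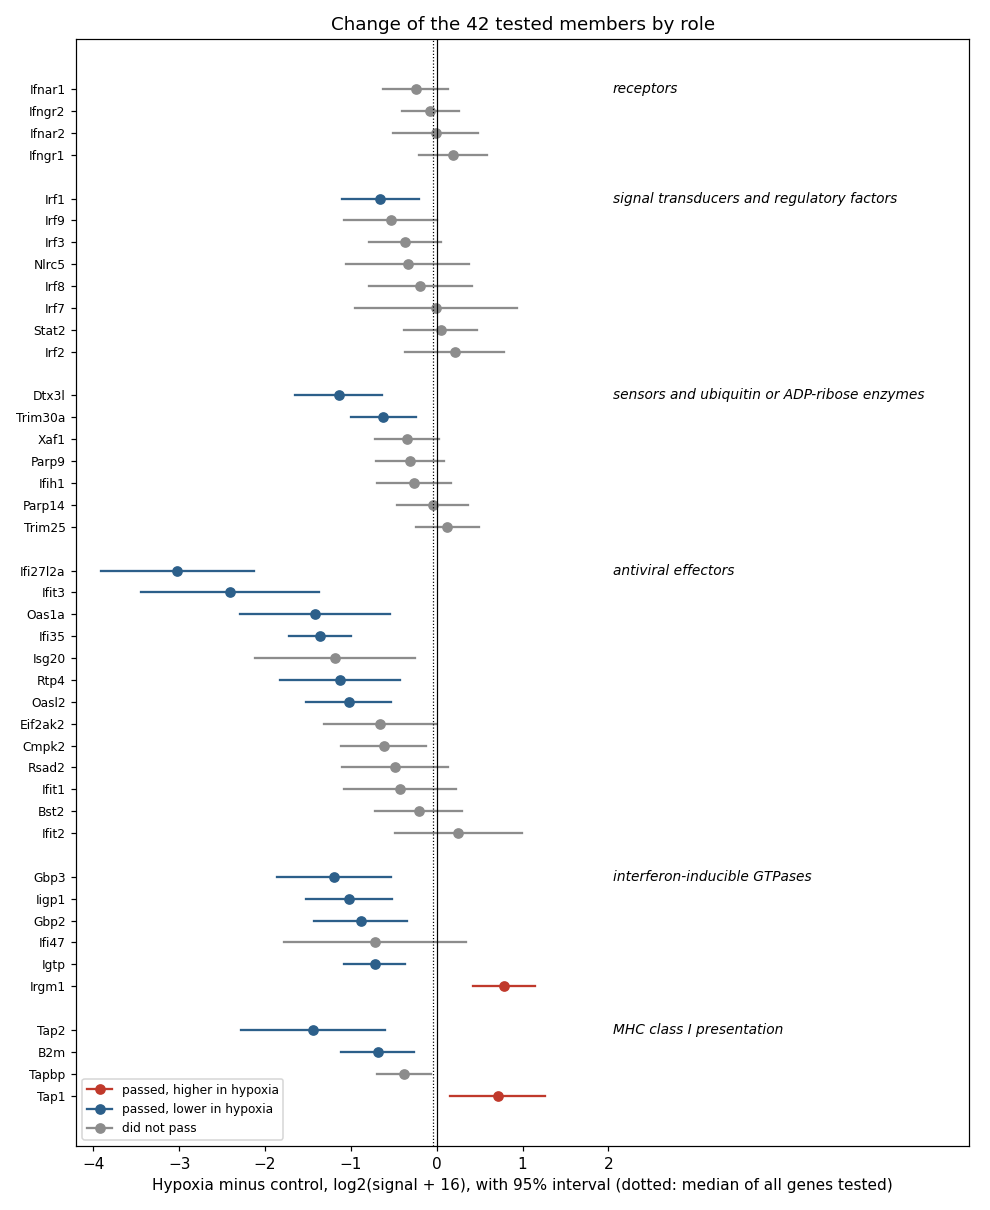
Difference in hypoxia minus control for the 42 tested genes, grouped by role, on the log2(signal + 16) scale. Points are limma estimates with 95% intervals, in colour where the adjusted p passed; the dotted line marks the median of all genes tested, -0.04. The antiviral effectors hold the lowest values, down to -3.02 for Ifi27l2a, and Irgm1 and Tap1 are the genes above 0 that passed.

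The groups also differed in other respects. Hypoxia 1 had a Gapdh 3' to 5' signal ratio, which rises with broken RNA, of 3.44, against 0.801 to 0.874 on the other 3 hypoxia arrays and 0.776 to 0.807 on the control arrays. For beta-actin this ratio ran between 1.40 and 2.53 in hypoxia and between 1.09 and 1.25 in control. Without hypoxia 1, 17 of the genes fell and 2 rose, where 18.8% of all genes tested fell. All 12 muscle fibre markers passed the filter, and with all 8 arrays 8 of them fell, where 18.8% of all genes tested fell.

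Some markers of other cells passed the test as well, where 18.8% of all genes tested fell and 14.8% rose. In bulk tissue fewer cells of a type and less RNA per cell cannot be told apart. All 6 tested fibroblast markers fell, with a summed signal of 13498 to 17923 in hypoxia and 41793 to 47265 in control. Of 11 tested macrophage markers Csf1r, Adgre1 and Ptprc fell and Cd68 rose, and the median difference over the 11 was -0.34. The sum over all 12 was 10353 to 17650 in hypoxia and 11110 to 16342 in control, and includes Cd68 at 4562 ± 804 in hypoxia and 289 ± 80.7 in control. Endothelial markers fell in 3 of 10 (sums of 6123 to 10181 in hypoxia and 8009 to 12434 in control). Neutrophil markers rose in 3 of 5, namely S100a8, S100a9 and Ngp. Camp and Elane did not pass, and Mpo and Cxcr2 lay below the filter. The sum over all 7 neutrophil markers was 3236 to 6078 in hypoxia and 527 to 1091 in control. It includes S100a8 at 2144.4 to 3095.3 in hypoxia and 123 to 391.5 in control. It also includes S100a9 at 461.3 to 1865.4 in hypoxia and 20 to 75.9 in control. Of 14 lymphocyte and natural killer cell markers 10 lay below the filter, Cd3e, Cd4 and Cd79a among them, and of 7 dendritic cell markers 4 did. The lymphocyte sums were 1314 to 1601 in hypoxia and 1561 to 1899 in control, and the dendritic cell sums 522 to 724 and 648 to 801. The deposited table holds no signal of 0. The part of these cells in the differences below was not tested.

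Promoter sequence is shown for 4 of the genes that fell and for Irgm1, which rose, because their windows carry the response elements through which interferons act. The windows are the 250 bases before the annotated start (RefSeq, GRCm38.p6), written 5' to 3' on the gene's own strand. Capitals mark the interferon-stimulated response element, searched as 2 runs of GAAA with any 2 bases between them, and the gamma-activated site searched as TTCNNNGAA, both on either strand, with overlapping matches run together. Ifit3 lies on chr19:34583279-34583528 (plus strand), Oas1a on chr5:120907526-120907775 (minus strand), Igtp on chr11:58199306-58199555 (plus strand), B2m on chr2:122147437-122147686 (plus strand) and Irgm1 on chr11:48871421-48871670 (minus strand).
Ifit3: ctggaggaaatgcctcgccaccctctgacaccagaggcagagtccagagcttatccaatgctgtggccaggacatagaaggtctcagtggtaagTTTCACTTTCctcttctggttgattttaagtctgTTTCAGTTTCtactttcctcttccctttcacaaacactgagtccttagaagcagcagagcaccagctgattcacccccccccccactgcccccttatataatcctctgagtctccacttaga
Oas1a: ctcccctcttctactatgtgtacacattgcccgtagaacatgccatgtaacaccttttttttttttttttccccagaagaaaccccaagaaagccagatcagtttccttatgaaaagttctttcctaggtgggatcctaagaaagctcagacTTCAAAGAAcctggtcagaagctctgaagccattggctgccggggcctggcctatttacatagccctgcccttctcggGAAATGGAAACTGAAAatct
Igtp: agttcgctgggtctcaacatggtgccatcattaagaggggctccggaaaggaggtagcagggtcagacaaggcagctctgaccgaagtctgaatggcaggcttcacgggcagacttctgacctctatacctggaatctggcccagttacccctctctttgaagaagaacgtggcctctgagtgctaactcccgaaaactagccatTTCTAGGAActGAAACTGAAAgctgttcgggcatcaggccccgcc
B2m: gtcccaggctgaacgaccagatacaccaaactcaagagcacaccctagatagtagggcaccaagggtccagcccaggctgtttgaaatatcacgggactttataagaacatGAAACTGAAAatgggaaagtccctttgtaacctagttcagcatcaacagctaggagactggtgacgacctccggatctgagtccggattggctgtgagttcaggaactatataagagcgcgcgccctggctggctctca
Irgm1: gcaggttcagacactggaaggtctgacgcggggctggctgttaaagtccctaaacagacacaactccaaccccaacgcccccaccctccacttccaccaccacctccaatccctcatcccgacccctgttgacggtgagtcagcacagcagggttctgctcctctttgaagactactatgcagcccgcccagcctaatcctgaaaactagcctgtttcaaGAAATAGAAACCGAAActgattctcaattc
In Ifit3 both response elements read on the reverse strand. In Oas1a a pair of overlapping elements ends 5 bases before the start, with a gamma-activated site further upstream. Igtp has a gamma-activated site next to a response element, and B2m has 1 response element, from 139 to 130 bases before its start. Irgm1, which differed from the other genes in direction, carries a pair of overlapping response elements from 30 to 15 bases before its start.

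Over the full RefSeq windows of 300 bases, which reach 50 bases past the start, 37 of the 46 genes had at least 1 window. The response element matched in 16 of these 37 genes (43.2%), against 3.99% of 27025 genes with a window, and the gamma-activated site in 12 (32.4%), against 9.55%. The response element matched in 7 of the 11 genes with a window that fell (Trim30a, Ifit3, Oas1a, Gbp2, Gbp3, Igtp and B2m), in 1 of 2 that rose, in 7 of 22 that did not pass and in Isg15, which has no value here. The gamma-activated site matched in 4 of those 11, 0 of 2 and 8 of 22. A match describes the letters in the window and is not a measure of binding.

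The interferon receptor genes showed no change past the test. Ifnar1 averaged a signal of 388 ± 74.0 in hypoxia and 457 ± 29.1 in control (SD, n = 4 each, as for all means here), and Ifnar2 averaged 427 ± 108 and 427 ± 107. Ifngr1, the ligand-binding chain for interferon gamma, averaged 1047 ± 223 in hypoxia and 912 ± 151 in control. Ifngr2, its signalling partner, averaged 723 ± 81.7 in hypoxia and 762 ± 85.0 in control. The 95% intervals of the 4 differences together spanned -0.63 to 0.59, so changes of up to about this size are not resolved. A second probe set of Ifngr2 gave another picture, with 21.4, 221.6, 429.7 and 233.2 in hypoxia, against 698.7, 623.6, 388.0 and 608.6 in control. Its difference of -1.72 passed when all probe sets were tested as units (adjusted p = 0.0416), so the level of Ifngr2 is uncertain. The second probe set of Ifnar2 changed by -0.65 without passing (adjusted p = 0.0706).

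Interferon ligand genes, listed after the other values were seen, gave little signal. Of 8 with a probe set of their own, 7 lay below the filter, including Ifng and Ifna4, whose signals were 6.3 to 15 and 8.1 to 18.2 in hypoxia, against 6 to 21.4 and 9 to 17.8 in control. Ifna1, also below the filter and untested, read 91.2, 93, 70.9 and 42.8 in hypoxia, against 12.8, 11.6, 35.5 and 17.3 in control, higher in hypoxia without overlap. Its probe set is of a kind that can bind related transcripts, so the signal may not be of Ifna1 alone. Ifnb1, the type I interferon beta gene, read 63.2, 133.1, 198.3 and 132.9 in hypoxia, against 86.6, 99, 100 and 113.1 in control, and did not pass. Signals of the 7 dim genes do not show whether a ligand was made.

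Among transducers and regulatory factors Irf1 alone passed. Irf1, a transcription factor induced by interferon gamma that drives MHC class I and guanylate-binding protein genes, read 498.7, 402.9, 798.2 and 506.9 in hypoxia, against 755.5, 806.9, 1054 and 816.2 in control. Its hypoxia 3 value lay above control 1, so the groups overlapped, and the difference was -0.66 ± 0.21 (SE, adjusted p = 0.0261). The call was lost without control 3 (adjusted p = 0.0801), without hypoxia 2 or 4, and after quantile normalization. Irf9, the DNA-binding part of the type I interferon complex, averaged 257 ± 103 in hypoxia and 366 ± 68.7 in control and did not pass (adjusted p = 0.122), but did without hypoxia 4 (adjusted p = 0.020). Stat2, its partner, averaged 242 ± 16.7 in hypoxia and 236 ± 37.6 in control, with a 95% interval of -0.38 to 0.47 for the difference.

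The remaining regulatory factors did not pass either. Irf3, which is activated by nucleic acid sensors, averaged 450 ± 118 in hypoxia and 572 ± 45.1 in control. Irf2, known as an antagonist of Irf1, read 682.4 on hypoxia 1 and 283.9 to 351.5 on the other hypoxia arrays, against 240.8 to 398 in control. Irf7, the amplifier of the type I response, averaged 127 ± 54.1 in hypoxia and 129 ± 70.5 in control, and spread so widely that its interval ran from -0.95 to 0.94. Irf8, a factor of myeloid cells, averaged 273 ± 52.1 and 330 ± 126. Nlrc5, the transactivator of MHC class I genes, averaged 126 ± 45.6 in hypoxia and 158 ± 31.3 in control.

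Of the sensors and of the enzymes that attach ubiquitin or ADP-ribose, Dtx3l and Trim30a fell. Dtx3l, a ubiquitin ligase that acts with Parp9, read 304.2, 191.3, 302.8 and 155 in hypoxia, against 547, 478.4, 440.2 and 660.6 in control. Every hypoxia value was below every control value, with a difference of -1.14 ± 0.23 (adjusted p = 0.00231), and its second probe set also fell, by 1.09. Its partner Parp9 averaged 363 ± 73.5 in hypoxia and 448 ± 40.8 in control without passing (adjusted p = 0.219). Trim30a, a tripartite-motif protein known as a brake on inflammatory signalling, averaged 318 ± 46.7 in hypoxia and 499 ± 66.8 in control without overlap, and fell 1.54-fold. The second Trim30a probe set showed a difference of only -0.03, and with the mean of both the call was lost (adjusted p = 0.130), so the change of Trim30a is uncertain.

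The others of this role gave smaller differences. Ifih1, the cytosolic RNA sensor MDA5, averaged 295 ± 76.9 in hypoxia and 352 ± 30.9 in control. Trim25, the ligase that supports RIG-I signalling, averaged 655 ± 58.0 in hypoxia and 606 ± 116 in control, and Parp14 averaged 311.5 ± 59.3 and 319 ± 28.7. Xaf1, a pro-apoptotic interferon-induced protein, had no overlap between groups (287 ± 35.8 in hypoxia and 369 ± 28.7 in control) but did not pass (adjusted p = 0.138).

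Among the antiviral effectors Ifi27l2a fell most. Ifi27l2a, a small hydrophobic interferon-induced protein, read 424.6, 403.1, 463.3 and 385.7 in hypoxia, against 2440.3, 2616.4, 11398.7 and 2081.9 in control. All control values were above all hypoxia values, and control 3 stood apart above the other control arrays. The difference was -3.02 ± 0.41 (adjusted p = 0.000124), and without control 3 it was -2.46 (adjusted p = 1.50e-06). Ifi27, on the list of further interferon-stimulated genes, fell too, by 1.48.

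**Figure D2:**
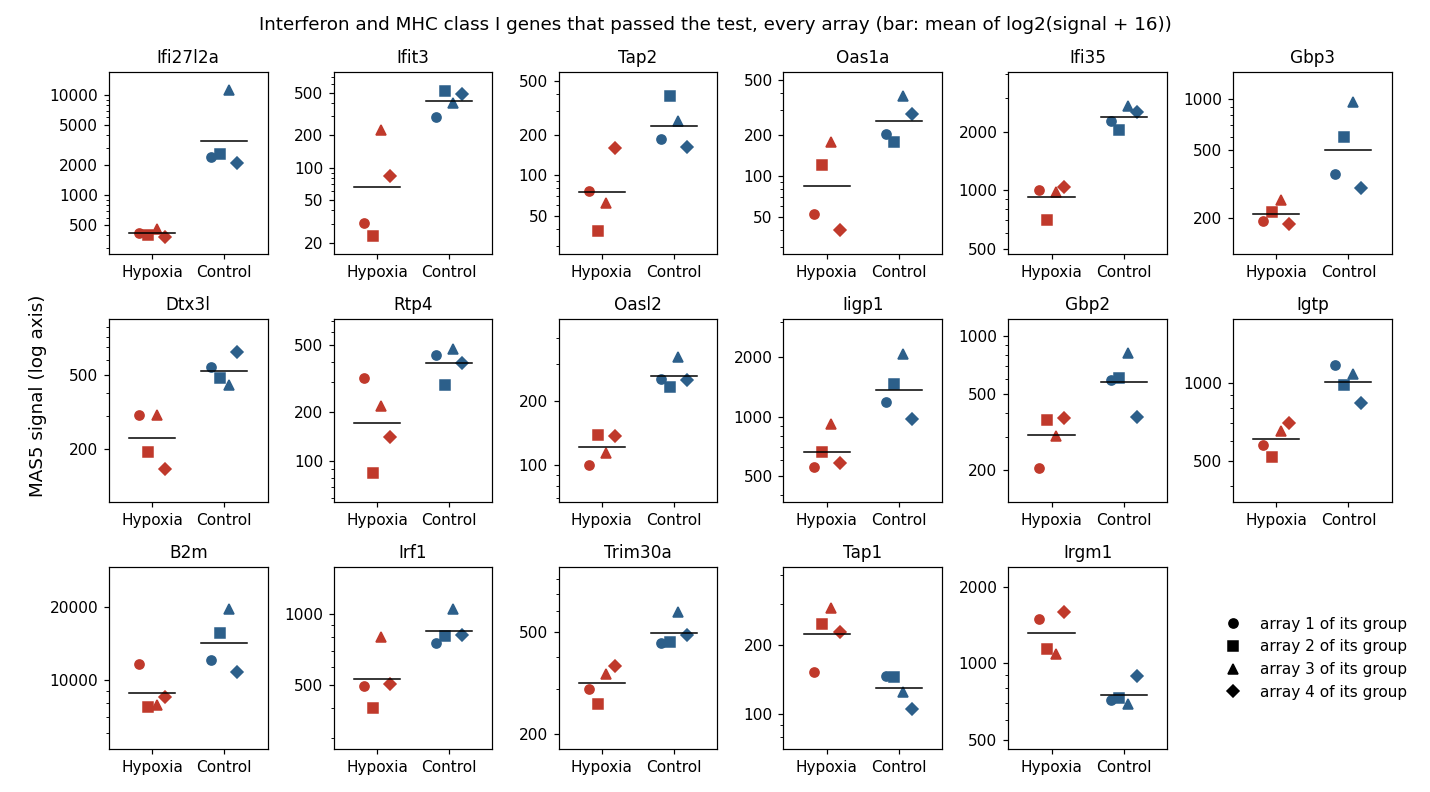
MAS5 signal on a log axis, 1 panel for each of the 17 genes that passed, ordered from the largest fall to the largest rise. Red points are the 4 hypoxia arrays and blue points the 4 control arrays, with a marker shape for each array number, and the bar is the mean of log2(signal + 16). The triangle of control 3 is the highest control value for Ifi27l2a (11398.7), Gbp3 (962.8) and B2m (19617.4), and hypoxia lies above control in Tap1 and Irgm1.

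Ifi35, which forms a complex with Nmi, fell on all 3 of its probe sets. The brightest read 1009.4, 700.7, 987.1 and 1043.3 in hypoxia, against 2300.2, 2061.4, 2736.1 and 2532.6 in control, without overlap. The difference was -1.36 ± 0.17 (adjusted p = 5.04e-05), and the other probe sets gave -0.78 and -1.22, which passed as well. The brightest probe set and the one at -0.78 are of kinds that can bind related transcripts, and the one at -1.22 is not. Its partner Nmi fell by 0.89.

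The IFIT genes encode proteins that bind foreign RNA, and of the 3 measured here Ifit3 passed. Ifit3 read 30.4, 23.3, 224.3 and 83.8 in hypoxia, against 297, 521, 398.4 and 481.4 in control. Hypoxia 3 stood above the other hypoxia arrays and below every control array, and the difference was -2.41 ± 0.48 (adjusted p = 0.00183). Hypoxia signals under the filter level make the size depend on the added constant, with -2.75 for 1 and -1.81 for 64. Over all alternatives the difference ranged from -2.93, without hypoxia 3, to -1.81. Ifit1 read 149.3, 90, 108.5 and 90.2 in hypoxia, against 160.3, 182.2, 172.4 and 99.7 in control, and did not pass (adjusted p = 0.306). Ifit2 read 454.7, 201.3, 176.9 and 326.9 in hypoxia, against 112.3, 288.5, 274.5 and 282.6 in control, with a difference of 0.25 ± 0.34. Whether the 3 genes differed from each other in their response was not tested.

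Of the oligoadenylate synthetase family, Oas1a and Oasl2 fell, whereas Oas2 (difference 0.26, adjusted p = 0.474) and Oasl1 (0.03, adjusted p = 0.945), from the list of further genes, did not pass and Oas3 and Oas1b lay below the filter. Oas1a, whose product makes the activator of RNase L, read 52.5, 119.6, 175.3 and 39.9 in hypoxia, against 201.8, 175.8, 382.7 and 284.5 in control. The groups did not overlap, but hypoxia 3 and control 2 nearly met, and the fall of 1.41 (adjusted p = 0.0161) did not pass without control 3 (adjusted p = 0.0573). Oasl2, a related protein, read 100.6, 138.3, 113.8 and 136.8 in hypoxia, against 255.5, 233.4, 324.8 and 251.1 in control. It fell by 1.03 ± 0.23 (adjusted p = 0.00365), with a clear gap between the groups. Rtp4, an interferon-induced chaperone of membrane receptors, read 317, 85.6, 215.2 and 140.6 in hypoxia, against 438.6, 287.7, 479 and 394.4 in control. The fall of Rtp4 was 1.13 ± 0.32 (adjusted p = 0.0163), although hypoxia 1 lay above control 2. A second Rtp4 probe set, dim and below the filter, showed a difference of 0.29, opposite in sign.

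Several effectors lay near the threshold. Isg20, an exonuclease, averaged 103 ± 67.6 in hypoxia and 241 ± 118 in control (difference -1.18, adjusted p = 0.0506). Cmpk2, a mitochondrial nucleotide kinase, averaged 214 ± 42.9 in hypoxia and 338 ± 82.1 in control (difference -0.62, adjusted p = 0.0548). Each passed under 5 of the alternatives, among them the one without hypoxia 1. Eif2ak2, the double-stranded RNA-dependent kinase PKR, averaged 136 ± 52.3 in hypoxia and 212 ± 19.6 in control, and its adjusted p was 0.112. Rsad2, which encodes viperin and lies beside Cmpk2 in the genome, averaged 403 ± 95.1 in hypoxia and 606 ± 312 in control, where control 3 alone read 1066. Bst2, the tetherin that holds virions at the cell surface, averaged 332 ± 93.2 in hypoxia and 377 ± 67.7 in control.

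The myxovirus GTPase genes gave signals too low to compare. Mx2 read 13.6 to 18 in hypoxia and 12.9 to 22.7 in control. Mx1 read 14 to 129.1 in hypoxia and 16.5 to 121.9 in control. Without the filter the adjusted p was 0.972 for Mx2 and 0.574 for Mx1. Many inbred laboratory mouse strains are known to carry defective Mx1 alleles, and the labels give no allele for these mice.

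Among the 6 interferon-inducible GTPases, 4 fell and only Irgm1 rose, where 18.8% of all genes tested fell and 14.8% rose. Gbp3, a guanylate-binding protein, read 190.5, 217.6, 253.9 and 182.7 in hypoxia, against 362.2, 599.6, 962.8 and 299.7 in control, with no overlap and a fall of 1.20 ± 0.30 (adjusted p = 0.00850). Gbp2, a related gene, read 205.3, 367.6, 303.1 and 375.9 in hypoxia, against 591.8, 607.6, 817.4 and 378.3 in control. Hypoxia 4 and control 4 nearly met, though no values overlapped, and the fall was 0.89 (adjusted p = 0.0145), with a second probe set at -0.83 that passed too. That second probe set is of a kind that can bind related transcripts.

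Of the immunity-related GTPases, which attack vacuoles that hold pathogens, Igtp and Iigp1 fell and Irgm1 rose. Igtp read 578.1, 520.1, 653.9 and 699.2 in hypoxia, against 1181.3, 983.7, 1091.7 and 837.8 in control, and fell by 0.72 ± 0.16 (adjusted p = 0.00425). Iigp1 read 554.9, 664.7, 913.2 and 580.7 in hypoxia, against 1186.8, 1460, 2072.4 and 968 in control, and fell by 1.02 ± 0.23 (adjusted p = 0.00447). Neither gene's groups overlapped, and a second Iigp1 probe set gave -0.48 without passing. Irgm1, a regulator of the other GTPases that is also linked to autophagy, read 1497.4, 1142.4, 1089.7 and 1591.5 in hypoxia, against 715.8, 734.6, 690.9 and 896.3 in control. Every hypoxia value of Irgm1 was above every control value, the rise was 0.78 ± 0.17 (adjusted p = 0.00312), and it passed under all 21 alternatives. Ifi47 averaged 122 ± 51.7 in hypoxia and 239 ± 141 in control and did not pass (adjusted p = 0.286). Its control 1 value of 56.4 lay below 3 of the 4 hypoxia values, and without control 1 the difference was -1.25 and passed (adjusted p = 0.0209).

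In MHC class I presentation the light chain was lower. B2m, the beta-2-microglobulin that every class I molecule needs at the cell surface, read 11580.5, 7685.7, 7812.5 and 8451.6 in hypoxia, against 12117.2, 15628.2, 19617.4 and 10753.6 in control. Hypoxia 1 exceeded control 4, so the groups overlapped, and the fall was 0.69 ± 0.20 (adjusted p = 0.0169). A second B2m probe set gave -0.67. The call was lost without control 2, without control 3 (adjusted p = 0.0564), without hypoxia 2 and after median centring.

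Of the peptide transporter genes Tap2 fell and Tap1 was called higher, but the rise of Tap1 is uncertain. Tap2 read 76.5, 39.1, 62.1 and 158.3 in hypoxia, against 183.9, 386.7, 250.4 and 162.4 in control, and fell by 1.45 ± 0.39 (adjusted p = 0.0115). Its hypoxia 4 and control 4 values nearly met. Tap1, the other chain of the transporter, read 151.9, 244.7, 288.3 and 226.1 in hypoxia, against 146.7, 145.5, 124.3 and 105.9 in control, a rise of 0.71 ± 0.26 (adjusted p = 0.0483). This Tap1 probe set is of a kind that can bind related transcripts, and the 3 other Tap1 probe sets, all below the filter, showed differences of 0.08, 0.11 and -0.13. The call was lost under 10 of 19 alternatives that gave a value, so the rise of Tap1 is uncertain. Tapbp, the tapasin that bridges the transporter and class I molecules, read 1509.7, 1562.3, 1498.1 and 1480.3 in hypoxia, against 2185.4, 1953.9, 2237.4 and 1581.1 in control. The Tapbp groups did not overlap, but the difference of -0.38 did not pass (adjusted p = 0.0638; 0.0279 without control 4), while a dimmer probe set at -1.54 did among all probe sets (adjusted p = 0.0401).

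**Figure D3:**
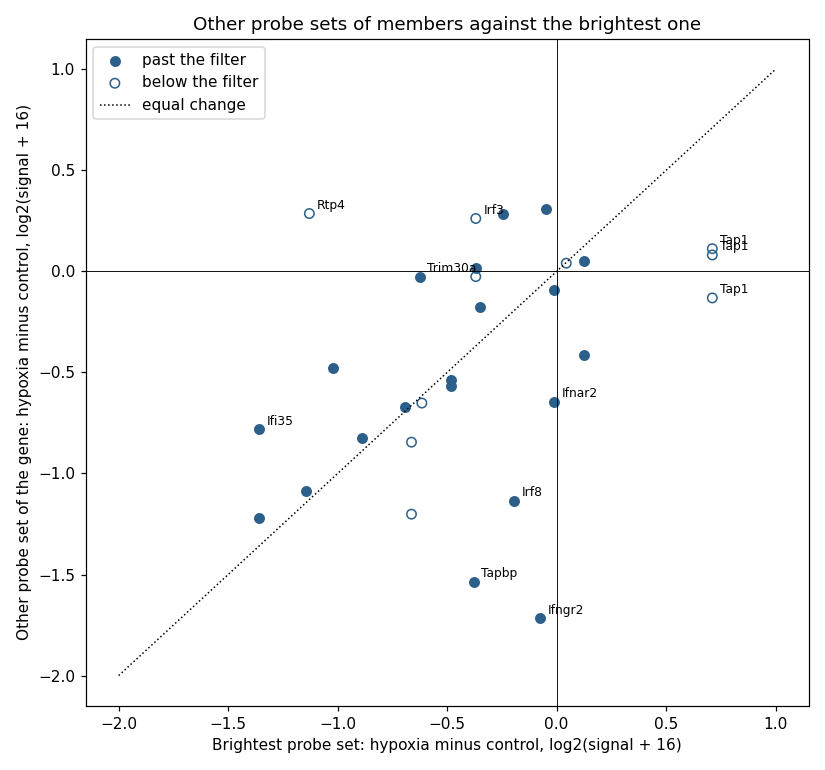
Difference in hypoxia minus control on the log2(signal + 16) scale for the 30 other probe sets of these genes (vertical axis) against the brightest probe set of the same gene (horizontal axis). Filled points passed the filter and open points did not. Tap1, Trim30a and Rtp4 lie well above or below the line of equal change, and the second probe sets of Ifngr2 and Tapbp show larger falls than the brightest ones.

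Of the 30 other probe sets 20 passed the filter, and 4 of these 20 had the opposite sign to the brightest one, for Ifnar1, Irf3, Parp14 and Trim25. When all probe sets were tested as units, 7 of the 20 passed, all with the sign of the brightest one. Of all genes, read by 1 probe set each, 33.6% passed, and the share over all probe sets was not counted. The 7 include those of Ifngr2 and Tapbp, whose brightest probe sets did not pass. The brightest Tap1 probe set did not pass among all probe sets (adjusted p = 0.0546).

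The control arrays were not alike in these genes. Control 3 held the highest of the 4 control values in 23 of the 42 genes (54.8%), against 25.6% of all genes tested, and in 11 of the 15 genes that fell. Its median deviation from the other 3 control arrays was 0.25 over the 42 genes and 0.01 over all genes. Without control 3, 12 genes fell and 1 rose, and Irf1, Oas1a and B2m were the ones no longer called lower. Of all genes tested 16.2% fell under that setting. Without both hypoxia 1 and control 3 the count was 12 lower and 2 higher, where 16.8% of all genes tested were lower.

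**Figure D4:**
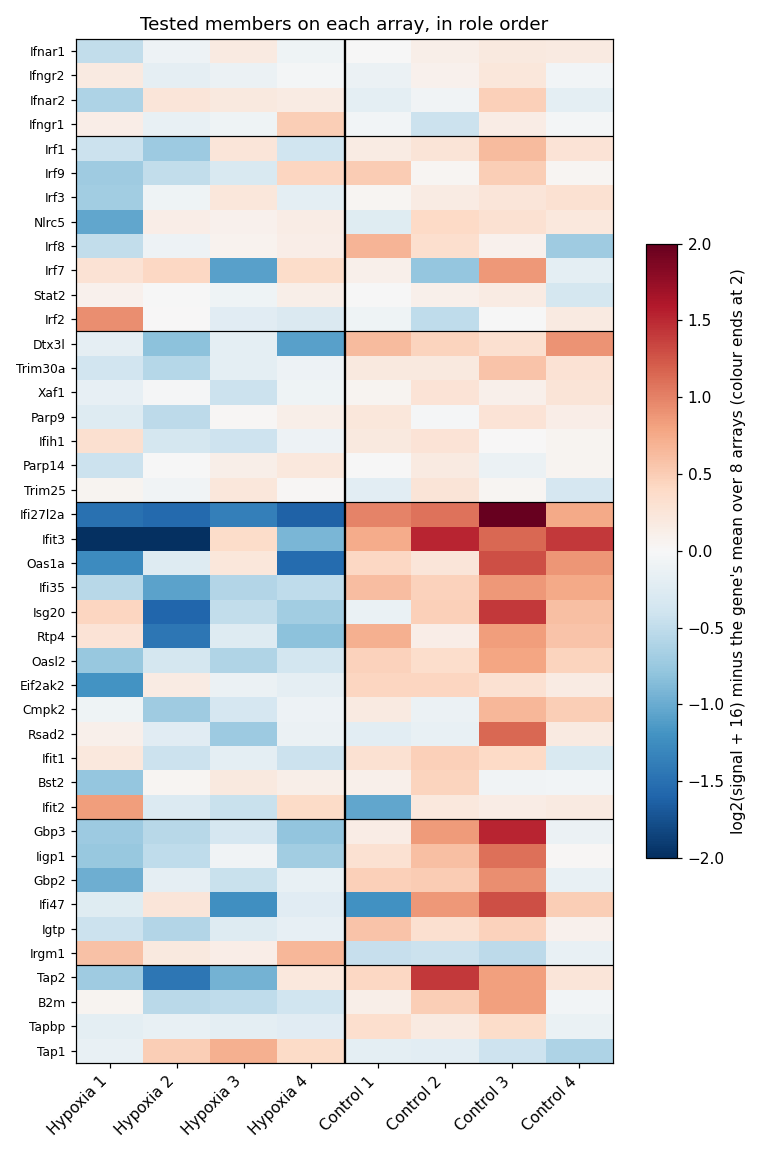
Each row is 1 of the 42 tested genes, ordered by role, and each column 1 array; colour gives log2(signal + 16) minus the gene's mean over the 8 arrays, with the colour scale ending at 2. The control 3 column is the reddest, most of all for Ifi27l2a, Gbp3 and Isg20, and Irgm1 and Tap1 are the called genes with higher values on the hypoxia arrays.

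Among further genes of interferon signalling and sensing, 1 of 26 tested rose and 4 fell, with a median of -0.0037, so the count of falls was near the 18.8% of all genes. Of the 3 receptor kinases of interferon signalling, Jak2 and Jak1 fell, while Tyk2 averaged 346 ± 94.6 in hypoxia and 347 ± 55.8 in control and did not pass (adjusted p = 0.945). Jak2 read 739.3, 659.7, 744.9 and 620.2 in hypoxia, against 2000.9, 1574.5, 1630.5 and 1567 in control, a fall of 1.27 ± 0.15 (adjusted p = 3.29e-05). Jak1 averaged 3154 ± 341 in hypoxia and 5473 ± 471 in control, a fall of 0.79. Both also serve many other cytokine receptors. Irf2bp2, a corepressor that binds Irf2, fell by 0.69 and Pias1, a SUMO ligase, fell by 0.46. Tlr4, the endotoxin receptor, rose by 1.08. Usp18, an interferon-induced protease that removes ISG15 from proteins, averaged 204 ± 26.2 in hypoxia and 222.5 ± 66.8 in control and did not pass (adjusted p = 0.850).

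Of 37 further interferon-stimulated genes 9 fell and 5 rose, with a median of -0.14, where 18.8% of all genes tested fell and 14.8% rose. The falls with the smallest p were Lgals9, a galectin (by 1.12), Ifi27 and Nmi. The rises with the smallest p were those of Ifi30, Trafd1 and Cxcl10. Ifi30, the lysosomal thiol reductase of antigen processing, averaged 3380 ± 335 in hypoxia and 834 ± 210 in control, and rose by 2.02. Trafd1 rose by 1.13. Cxcl10, a chemokine induced by interferon gamma and by inflammatory signals, read 451.8, 666.3, 565.5 and 692.9 in hypoxia, against 60.6, 220.4, 150.7 and 126 in control, and rose by 2.07 ± 0.30 (adjusted p = 0.000198). 

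Of 20 further genes of MHC class I and antigen processing 8 fell and none rose, with a median of -0.58. Of all genes tested 18.8% fell and 14.8% rose. This list named 34 genes, of which 24 had a probe set of their own and 20 passed the filter. Psme1, a subunit of the proteasome activator PA28, averaged 859 ± 81.8 in hypoxia and 2794 ± 169 in control, and fell by 1.69 ± 0.14 (adjusted p = 1.71e-06). Psmb8, a catalytic subunit of the immunoproteasome, read 35.6, 129.4, 145.7 and 107 in hypoxia, against 472.9, 532, 504.5 and 226.3 in control, and fell by 1.96 (adjusted p = 0.00145). Hfe and Fcgrt, class I-like proteins that handle iron uptake and immunoglobulin G and do not present peptides, fell by 1.23 and fell by 1.79, in that order. The classical heavy chains did not pass. H2-K1 averaged 4842 ± 445 in hypoxia and 5825 ± 1582 in control (adjusted p = 0.412), and H2-D1 averaged 3798 ± 1310 in hypoxia and 5560 ± 1390 in control (adjusted p = 0.106). These heavy chains are near copies of each other, so their probe sets can share signal.

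**Figure D5:**
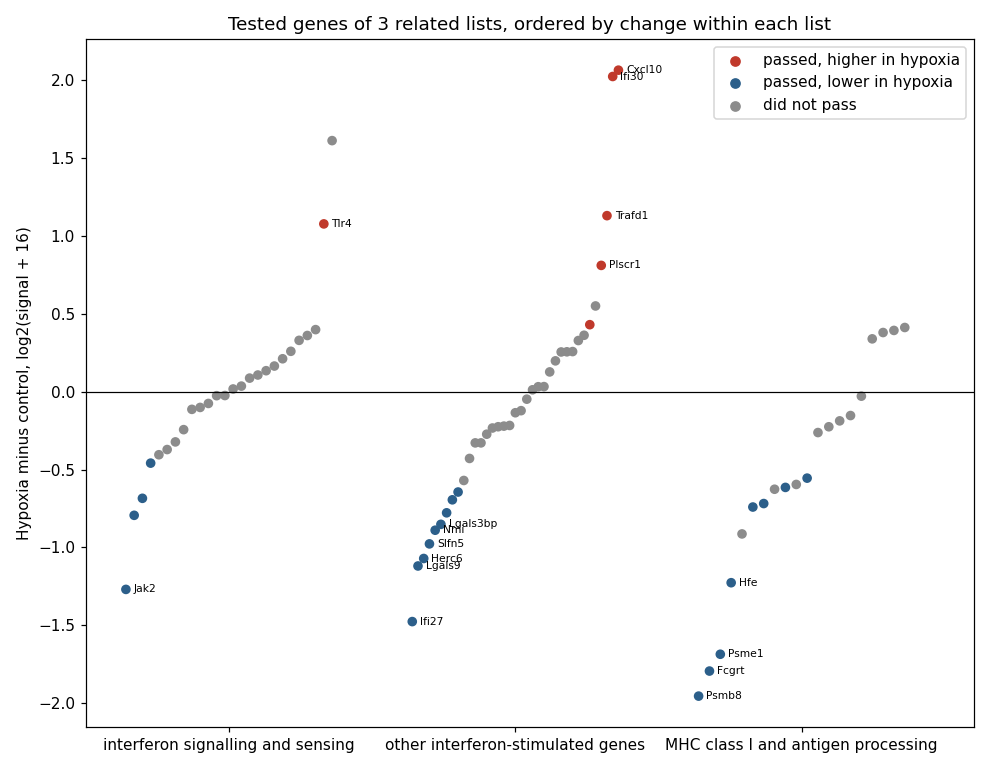
Difference in hypoxia minus control on the log2(signal + 16) scale for the tested genes of 3 related lists, ordered within each list; colour marks the genes that passed. Psmb8, Fcgrt and Psme1 are the lowest points of the antigen processing list, and Cxcl10 and Ifi30 the highest of the interferon-stimulated list.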

How the data were processed

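The authors deposited linear MAS5 signals, an intensity for each probe set on each array. MAS5, which subtracts mismatch background and scales each array by 1 factor, is named per the submitters' processing notes; its version is not given in the sources used here. The 2% trimmed mean was 500.0 on each array and the median 128 to 165, so the authors' scaling was kept. The number of arrays, 4 a group, limits the precision. Titles gave the groups.

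The 64 control probe sets among 45101 were dropped first, then the 40% with the lowest mean, which left 27022. Those with 1 gene symbol were kept, and the probe set with the highest mean stood for each of 13257 genes. Hypoxia was compared with control on log2(signal + 16) by limma 3.58.1 in R 4.3.3 (lmFit, eBayes with trend, two-sided, threshold 0.05, without a replicate block). The procedure was tested on simulated data. MAS5 noise at low signal and saturation at high signal compress or blur changes.

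The genes and lists were chosen with earlier results of these data known. Every listed gene may be named. Of the 46 genes, values on all 8 arrays are given for those that passed, except Trim30a, and, chosen later, for a few others. For genes with an array far from its group, that array and the range of the others in the group are given. Of each related list up to 3 genes per direction with the smallest p are named; Tyk2, Oas2, Oasl1, Oas3, Oas1b, Pias1, Psmb8, Usp18, H2-K1 and H2-D1 are named for their role or to complete a count, after their values were seen. Alternatives were 2 normalizations, other added constants and filters, the mean of probe sets, other variance settings, a replicate block and leaving out each array.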

Additional observations from a re-analysis of the deposited data

Results flagged for a closer look

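In 7 of 88 groups of 4 arrays, 1 array lay so far from the other 3 that its gap to the nearest of them, as a share of the group's range, passed Dixon's 95% critical value. Chance alone flags about 5% of such groups.

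Hypoxia 1 was the low array in 3 of them, and it was the lowest hypoxia array in 33.1% of all genes tested. Ifnar2 read 266.2 there, against 469.4 to 493.5 on the other hypoxia arrays. Nlrc5 read 58.2, against 144.9 to 152. Bst2 read 194.6, against 355 to 399.7. Hypoxia 1 is also the array with a Gapdh 3' to 5' ratio of 3.44, and the part of RNA quality in these values was not tested.

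Irf7 read 46.5 on hypoxia 3, against 146.4 to 160.8 on the other hypoxia arrays. Ifi35 read 700.7 on hypoxia 2, against 987.1 to 1043.3. Ifit2 read 112.3 on control 1, against 274.5 to 288.5 on the other control arrays. Ifi27l2a read 11398.7 on control 3, against 2081.9 to 2616.4.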

How the results depend on the processing

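Over 21 alternatives, 2 of them chosen after seeing the data, all 17 called genes kept their sign wherever they were tested and 11 kept their call. These 11 were Ifi27l2a, Ifit3, Ifi35, Oasl2, Rtp4, Dtx3l, Gbp3, Igtp, Iigp1, Tap2 and Irgm1. The count of higher genes was 1 without the filter, with a 60% filter, with robust eBayes, with the replicate block and without probe sets that can bind related transcripts, and 1 to 2 when single arrays were left out; lower genes numbered 12 to 17 there. With the 60% filter Ifit3, Oas1a, Oasl2 and Tap2 were not tested. Median centring moved the median of all genes by 0.08, and the share of higher genes among all calls was 50.7% under it and 50.1% under quantile normalization, against 44.0%. The replicate numbers did not pair the arrays (same-number correlations of -0.07 to 0.0024, none the best match), and the block left 15 lower genes and 1 higher.

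Among genes that did not pass, 12 changed sign somewhere, and the cause was not tested. Ifnar2, Ifngr2, Irf7 and Parp14 gave 0.13, 0.038, 0.064 and 0.082 under quantile normalization and 0.070, 0.0075, 0.076 and 0.034 under median centring. Irf7 gave 0.00059 with 64 added to each signal. With the mean of probe sets Ifnar1 gave 0.019, Trim25 -0.080 and Parp14 0.13. With array weights Ifnar2 gave 0.099, Irf7 0.058 and Parp14 0.0037. Without both hypoxia 1 and control 3, Ifnar2 gave 0.35, Irf2 -0.030, Irf7 0.19 and Parp14 0.037. Irf3 gave 0.016 without probe sets that can bind related transcripts. Leaving out single arrays, the range was -0.26 to 0.35 for Irf7, -0.46 to 0.00063 for Irf8, -0.054 to 0.44 for Ifit2, -0.13 to 0.085 for Parp14, -0.092 to 0.19 for Ifnar2, -0.065 to 0.10 for Stat2, -0.065 to 0.34 for Irf2 and -0.31 to 0.014 for Bst2.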
